A study of Mus musculus with 28 samples.

Results

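The levels of 10 inflammatory genes were followed through the conversion of mouse embryonic fibroblasts (MEFs) to induced pluripotent stem (iPS) cells: the chemokine genes Ccl2, Ccl7, Cxcl1, Cxcl5 and Cxcl12, the cytokine gene Il6, the acute phase genes Saa3 and Lcn2, the prostaglandin synthase gene Ptgs2 and the endotoxin receptor gene Tlr4. The genes were chosen by name, and all 10 were measured, out of 11807 genes in a table of 24 arrays and 12394 genes in a separate table of 4 arrays. Values are log2 signals of array probe sets, so a difference of 1 is a 2-fold difference. The arrays covered MEFs (day 0, Thy1+, 2 arrays), sorted cells of days 3 and 6 (2 arrays per fraction), sorted cells of days 9 and 12 (1 array per fraction) and iPS lines (3 arrays).

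The MEFs were KH2 fibroblasts from E13.5 embryos of reprogrammable mice of strain C57BL6/129, with 1 or 2 copies of the OKSM cassette, which encodes the reprogramming factors Oct4, Klf4, Sox2 and c-Myc, and a Rosa26-M2rtTA allele, the transactivator that doxycycline switches on. The cells were kept in embryonic stem cell medium with serum, the cytokine LIF and doxycycline, then sorted by the fibroblast surface protein Thy1 and the early reprogramming antigen SSEA1. The Thy1+ fraction kept the fibroblast marker, the Thy1- fraction lacked both markers, and the SSEA1+ fraction was Thy1-negative and SSEA1-positive. On day 12 a further SSEA1+ fraction expressed GFP (the labels give no reporter gene), and the iPS cells were also Thy1-, SSEA1+ and GFP+ and had been preplated to remove feeder cells. The 4 further arrays held day 6 SSEA1+ cells split by the epithelial surface protein EpCAM (2 EpCAM- and 2 EpCAM+), with no strain in the labels. Replicates of days 0 to 6 carry the names M2 and M3, whose meaning is not given, and days 9 and 12 are M2 only. No sorted cells without the factors were among the groups, so effects of the factors, of doxycycline, of the medium and of time in culture cannot be told apart. Nothing in the labels says that replicates came from separate embryos, so every p-value rests on a spread between arrays that may be technical.

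Chemokines are small secreted proteins that direct the movement of white blood cells. Ccl2 and Ccl7, whose genes are neighbours on chromosome 11, attract monocytes, Cxcl1 and Cxcl5, encoded in a cluster on chromosome 5, attract neutrophils through the receptor Cxcr2, and Cxcl12 is a stromal chemokine that binds Cxcr4 and the scavenging receptor Ackr3. Il6 signals through Il6ra and the shared chain Il6st (gp130), which also carries the LIF signal, to the kinases of the JAK family and the transcription factor Stat3. Tlr4, with Ly96, Cd14 and the serum protein Lbp, senses bacterial lipopolysaccharide and activates NF-kB. NF-kB and the C/EBP factors are known to drive Il6, the chemokines, the serum amyloid gene Saa3, the iron-siderophore-binding lipocalin gene Lcn2 and Ptgs2, which encodes cyclooxygenase-2. Fibroblasts are a known source of most of these products.

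The 6 members with an entry in the RefSeq promoter table (mouse assembly GRCm38.p6) are shown because they include genes that moved in opposite directions on day 3: Saa3 and Lcn2 upward, Cxcl12 and Ptgs2 downward. Each stretch holds 140 bases before the annotated start of transcription (1 to 140 bases before it, except for Lcn2, 111 to 250 bases before it), on the gene's own strand. The Saa3 entry belongs to an annotated start inside the gene's full RefSeq span, and its positions are counted from that start. Capitals mark matches, on either strand, to a 10-base form of the NF-kB motif (GGGA, any 1 base, then TTTCC) or an 8-base form of the C/EBP motif (TTGCNNAA). The array tables name no genome build, so the coordinates belong to RefSeq alone.
Cxcl1, chr5:90891105-90891244, plus strand: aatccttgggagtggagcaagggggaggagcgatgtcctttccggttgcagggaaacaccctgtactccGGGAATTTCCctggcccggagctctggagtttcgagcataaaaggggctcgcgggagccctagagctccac
Cxcl12, chr6:117168395-117168534, plus strand: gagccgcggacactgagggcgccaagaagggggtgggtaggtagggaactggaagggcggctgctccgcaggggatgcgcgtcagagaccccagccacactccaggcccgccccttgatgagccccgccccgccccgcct
Il6, chr5:30012974-30013113, plus strand: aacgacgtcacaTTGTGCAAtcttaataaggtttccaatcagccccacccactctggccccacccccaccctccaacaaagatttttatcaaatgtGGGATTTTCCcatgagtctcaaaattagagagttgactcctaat
Saa3, chr7:46715677-46715816, minus strand: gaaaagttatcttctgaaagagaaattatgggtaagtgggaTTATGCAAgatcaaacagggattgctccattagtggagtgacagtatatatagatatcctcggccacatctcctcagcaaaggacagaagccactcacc
Lcn2, chr2:32387850-32387989, minus strand: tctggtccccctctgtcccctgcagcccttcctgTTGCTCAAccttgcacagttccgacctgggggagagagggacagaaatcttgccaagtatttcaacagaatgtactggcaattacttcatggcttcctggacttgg
Ptgs2, chr1:150099891-150100030, plus strand: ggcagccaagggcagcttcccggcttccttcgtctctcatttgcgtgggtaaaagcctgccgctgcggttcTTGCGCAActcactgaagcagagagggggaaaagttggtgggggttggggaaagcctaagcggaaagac

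Among these 6 members, the NF-kB form was found in 2, Cxcl1 (71 to 62 bases before the start) and Il6 (44 to 35 bases before it). The same letters occur in the 250 bases before the start in 117 of 32851 RefSeq promoters (0.356%). The C/EBP form was found in 4: Il6 (128 to 121 bases before the start), Lcn2 (216 to 209), Saa3 (99 to 92) and Ptgs2 (69 to 62). It occurs in 9.56% of the promoters in the table. The C/EBP form thus lay before Lcn2 and Saa3, which rose in every fraction on day 3, and before Ptgs2, which fell in every fraction. Cxcl12 had neither set of letters in its 250 bases. A match is a description of the letters, not a measured binding site. Ccl2, Ccl7, Cxcl5 and Tlr4 had no entry in the promoter table, so their letters were not searched.

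One array stood apart. In replicate M2 of the day 6 Thy1+ cells the 3′ minus 5′ control signal, a sign of RNA degradation, was 1.78 for Gapdh and 1.49 for Actb, against 0.58 to 1.11 and 0.68 to 1.18 on the other 23 arrays. Its group was also the most variable, with a spread between its 2 arrays of 0.464 over all genes and 0.806 over the 10 members, against 0.111 to 0.241 over all genes in the other replicated groups. Where leaving this array out moved a called value by over 1.5 times or ended a call, the value without it is given. The fibroblast marker list (11 of 14 genes measured) averaged 11.86 to 11.90 in MEFs and 6.61 to 7.53 in iPS cells, and the pluripotency list (11 of 12) averaged 4.46 to 4.47 and 11.32 to 11.52, in the direction of the labels. The macrophage list (15 of 15) averaged 4.48 to 5.03 on all 24 arrays, with the leukocyte gene Ptprc at 2.68 to 3.40 and the macrophage gene Adgre1 at 3.53 to 3.90, below the level under which the dimmest 25% of genes lay (4.87 to 5.17). The macrophage receptor gene Csf1r lay at 4.89 to 5.47. Other genes of the list were brighter on some arrays: Laptm5 had 5.03 to 9.47, Cd68 4.57 to 8.65, Cd14 4.61 to 6.54 and Lyz2 3.35 to 6.19. The neutrophil list (8 of 10) averaged 4.03 to 4.5. These are bulk samples, in which fewer cells of a type and less RNA per cell cannot be told apart.

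The 10 genes did not share one course (the plot of signals by array). The highest group mean lay in Thy1+ cells of day 3 for 5 genes (Il6, Ccl2, Ccl7, Cxcl5 and Saa3), in Thy1+ cells of day 12 for 4 (Cxcl1, Cxcl12, Lcn2 and Tlr4), and in MEFs for Ptgs2. No member was highest in an SSEA1+ fraction. The lowest mean fell in GFP+ cells for 5 genes (Il6, Cxcl1, Cxcl5, Ptgs2 and Tlr4), in iPS cells for 4 (Ccl2, Ccl7, Cxcl12 and Lcn2) and in day 9 SSEA1+ cells for Saa3. From highest to lowest group mean, Ptgs2 spanned 6.91 on the log2 scale and Cxcl5 6.53, and the other 8 spanned 4.17 (Cxcl12) to 5.42 (Ccl7).

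Precision differed between the genes. The residual SD between replicate arrays was 0.18 for Cxcl12 and 0.19 for Ccl2, and 0.60 for Saa3 and 0.56 for Ptgs2. When the 15 group means were put in order, 11 of the 14 steps between neighbours exceeded that SD for Cxcl12 and 9 for Ccl2. For Saa3, Lcn2 and Il6 only 3 steps did, so most neighbouring groups of those genes are not separated by more than their spread. The steps over the SD numbered 4 for Ccl7 and Ptgs2 and 6 for Cxcl1, Cxcl5 and Tlr4. The step between the lowest mean and the next exceeded the SD only for Ccl2 (0.44) and Cxcl12 (0.21). For the other members the group with the lowest mean is thus not separated from the next by more than the spread.

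**Figure D1:**
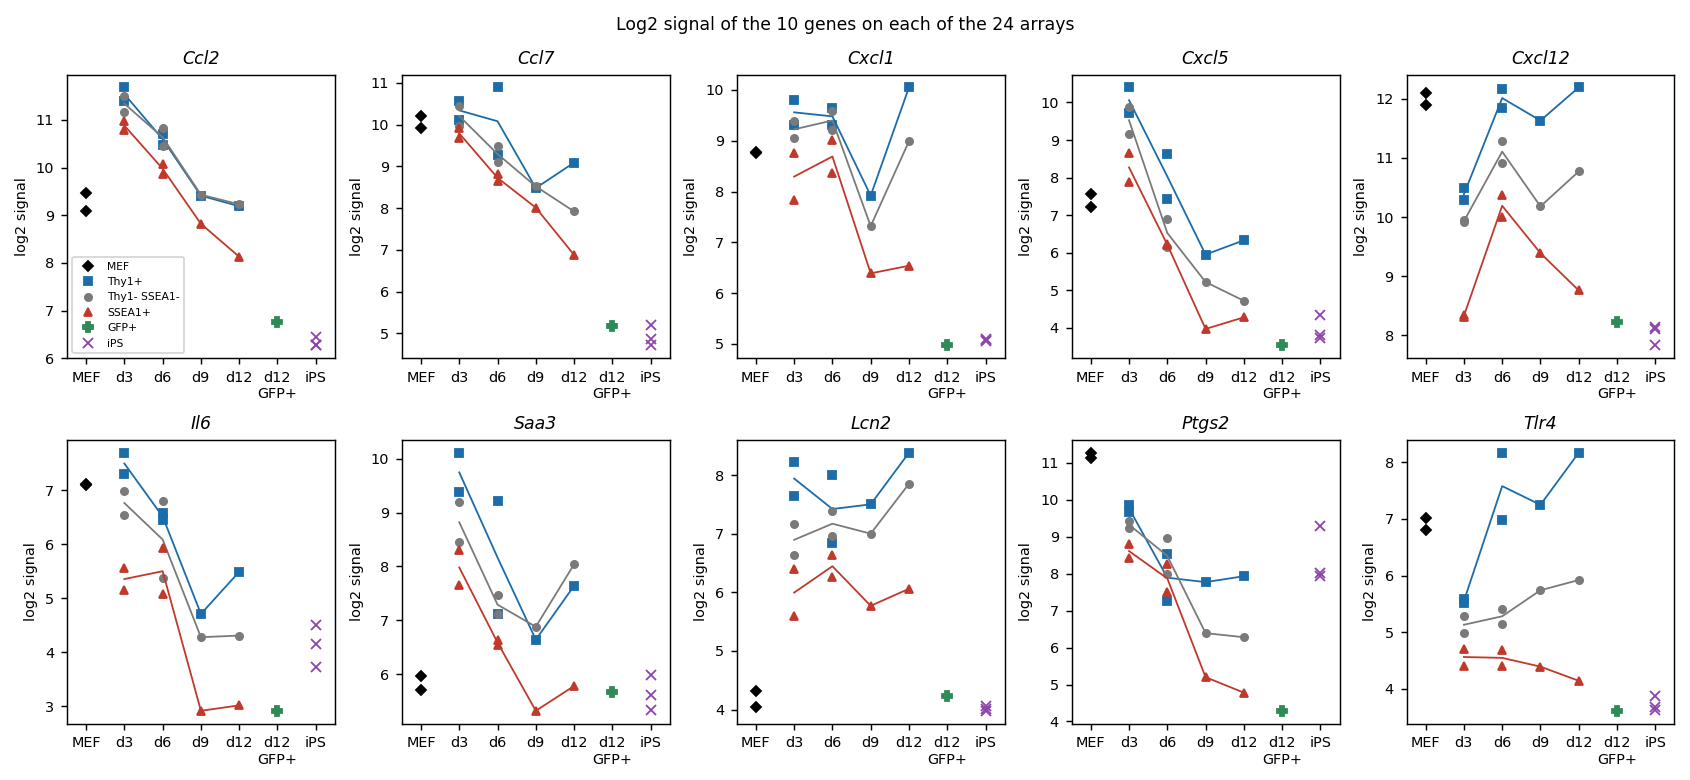
Log2 signal (vertical axis) of each of the 10 genes on each of the 24 arrays, by day and fraction (horizontal axis); each point is 1 array. Lcn2 and Saa3 lie higher in every day 3 fraction than in MEFs, Cxcl12 and Tlr4 lie lower, and most genes are lowest in GFP+ or iPS cells.

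Day 3 against MEFs asked what changed first in each fraction. The acute phase genes Saa3 and Lcn2 and the monocyte chemokine gene Ccl2 rose in all 3 fractions. The stromal chemokine gene Cxcl12, Ptgs2 and Tlr4 fell in all 3. Cxcl5 rose in the Thy1+ and Thy1- fractions, Il6 fell in the SSEA1+ fraction, and Ccl7 and Cxcl1 passed in none. A gene was called when its Benjamini-Hochberg adjusted p over all genes was under 0.05 (limma) and the difference was at least 2-fold. By that rule 7 of 10 members were called in Thy1+ cells, 7 in Thy1- cells and 7 in SSEA1+ cells, where 10.7%, 12.3% and 16.1% of all genes were called. The 3 comparisons share the same 2 MEF arrays.

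Lcn2, whose product withholds iron from bacteria, had signals of 4.31 and 4.05 in the MEF arrays, at or above 16.3% and 12.7% of genes. That is inside the dimmest 25%, where a signal may be background, so its folds against MEFs may understate the difference. In Thy1+ cells of day 3 it had 8.23 and 7.65, a rise of 3.76 ± 0.35 (SE, 2 against 2 arrays), or 13.6-fold (adjusted p = 1.73e-06). It had 7.16 and 6.63 in Thy1- cells (2.72 ± 0.35, 6.57-fold) and 5.59 and 6.40 in SSEA1+ cells (1.82 ± 0.35, 3.52-fold, adjusted p = 8.3e-04). No day 3 array overlapped the MEFs. Saa3, an acute phase apolipoprotein gene, followed the same order. It had 5.71 and 5.96 in MEFs, then 10.11 and 9.38 in Thy1+ cells (15.0-fold, 3.91 ± 0.50, adjusted p = 3.75e-05). Thy1- cells had 9.19 and 8.45 (7.94-fold) and SSEA1+ cells 7.66 and 8.30 (4.42-fold, adjusted p = 0.0036).

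Ccl2 began from a higher level, 9.47 and 9.09 in MEFs. It rose to 11.68 and 11.40 in Thy1+ cells, by 2.26 ± 0.18 (4.79-fold, adjusted p = 5.33e-07). Thy1- cells had 11.51 and 11.17 (4.17-fold) and SSEA1+ cells 10.78 and 10.98 (1.60 ± 0.18, 3.03-fold, adjusted p = 8.79e-06). The groups did not overlap in any fraction. Its neighbour Ccl7 was already at 10.20 and 9.93 in MEFs and had 10.57 and 10.11 in Thy1+ cells, a difference of 0.28 (95% interval -0.53 to 1.09, adjusted p = 0.705). The 2 adjacent monocyte chemokine genes thus differed in their first step in these values; the difference between them was not tested. Cxcl5 had 7.23 and 7.57 in MEFs and 10.40 and 9.72 in Thy1+ cells (2.66 ± 0.40, 6.31-fold, adjusted p = 1.67e-04). It had 9.89 and 9.16 in Thy1- cells (2.12 ± 0.40, 4.36-fold) and 7.89 and 8.65 in SSEA1+ cells, where the difference of 0.87 (95% interval 0.01 to 1.73) had an adjusted p of 0.114. Cxcl1, the other neutrophil chemokine gene, had 8.78 and 8.76 in MEFs and 9.80 and 9.32 in Thy1+ cells (0.79, 95% interval 0.18 to 1.39, adjusted p = 0.0588).

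Cxcl12 was among the brightest genes in MEFs, at 12.09 and 11.89. It fell to 10.49 and 10.28 in Thy1+ cells (-1.60 ± 0.18, 3.03-fold), 9.91 and 9.95 in Thy1- cells (4.17-fold) and 8.35 and 8.31 in SSEA1+ cells (-3.66 ± 0.18, 12.7-fold, adjusted p = 1.89e-09). The steps between fractions were larger than the gaps between replicates. Tlr4 had 6.80 and 7.01 in MEFs, 5.59 and 5.51 in Thy1+ cells (-1.36 ± 0.28, adjusted p = 0.00227), 5.28 and 4.98 in Thy1- cells and 4.71 and 4.41 in SSEA1+ cells (-2.35 ± 0.28, 5.09-fold, adjusted p = 1.2e-05). Ptgs2 had 11.13 and 11.27 in MEFs and 9.85 and 9.68 in Thy1+ cells (-1.44 ± 0.47, 2.70-fold, adjusted p = 0.0378). It had 9.42 and 9.23 in Thy1- cells (-1.88, adjusted p = 0.00734) and 8.41 and 8.81 in SSEA1+ cells (-2.59 ± 0.47, 6.02-fold, adjusted p = 5.32e-04). The Ptgs2 call in Thy1+ cells was lost without any 1 of the 4 arrays, at -1.37 (adjusted p = 0.167, without MEF M3), -1.50 (0.118, without MEF M2), -1.52 (0.114, without day 3 Thy1+ M2) and -1.35 (0.169, without day 3 Thy1+ M3). In Thy1- cells it was lost without MEF M3 (-1.81, adjusted p = 0.0533) or day 3 Thy1- M3 (-1.78, 0.0541).

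**Figure D2:**
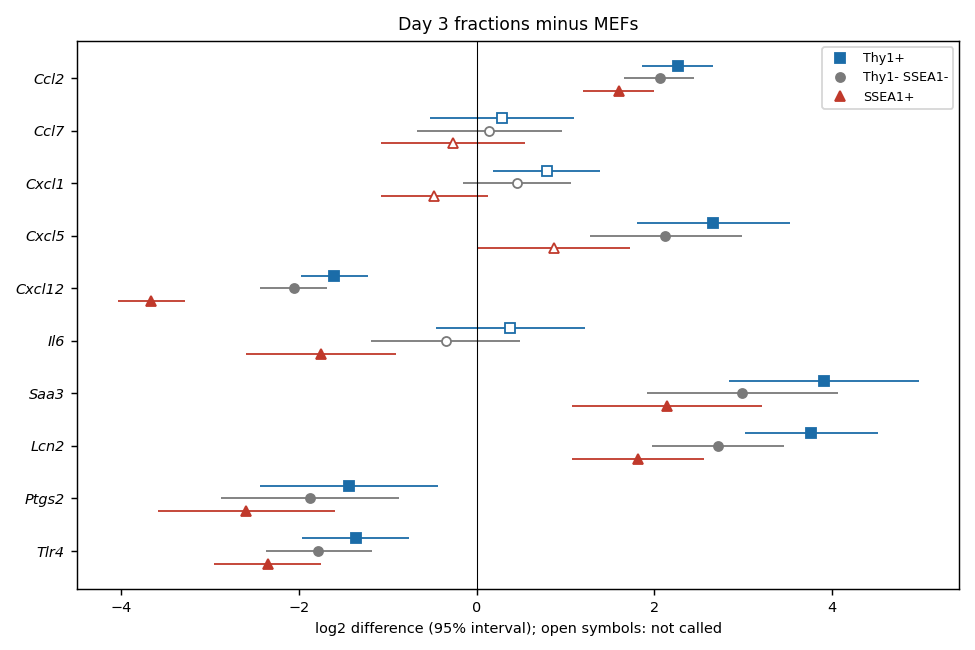
Difference of each day 3 fraction from MEFs (horizontal axis, log2) for the 10 genes, with 95% intervals from limma; open symbols were not called. Saa3 and Lcn2 lie farthest right, with 3.91 and 3.76 in Thy1+ cells, and Cxcl12 farthest left, with -3.66 in SSEA1+ cells.

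Il6 divided the fractions on day 3. It had 7.12 and 7.10 in MEFs and 7.29 and 7.69 in Thy1+ cells (0.38, 95% interval -0.46 to 1.22, adjusted p = 0.588), 6.54 and 6.98 in Thy1- cells, and 5.56 and 5.15 in SSEA1+ cells, a fall of -1.75 ± 0.39 (3.37-fold, adjusted p = 0.00274). The SSEA1+ arrays lay below every MEF and Thy1+ array.

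Other genes of these pathways changed as well in Thy1+ cells of day 3, where 5.27% of all genes were called higher and 5.43% lower. Of 30 other chemokine and cytokine genes 4 rose, among them Ccl20 (2.17) and the scavenger-receptor chemokine gene Cxcl16 (1.80), and 3 fell, with the cytokine gene Il11 at -2.77; the list's median was -0.01, against 0.01 for all genes. Of 32 Toll-like receptor and NF-kB genes 4 rose, including the adhesion receptor gene Icam1 (2.40) and the NF-kB inhibitor gene Nfkbia (2.04), and 1 fell, the interleukin-1 receptor gene Il1r1 (-2.62); the median was -0.04. In the list of 19 IL-6 receptor and JAK-STAT genes, Il6ra rose (1.93 ± 0.19, adjusted p = 3.6e-06) and its partner Il6st fell (-1.03 ± 0.17). Of 22 acute phase and prostaglandin genes 2 rose, with the protease inhibitor gene Serpina3n at 2.12, and 3 fell, with the prostaglandin F receptor gene Ptgfr at -3.59. None of 18 interferon-response genes rose and 3 fell (limma; 10 had an unadjusted p under 0.05), with a median of -0.49. Beside these, the fibroblast list averaged 9.90 to 10.01 in Thy1+ cells, 9.41 to 9.55 in Thy1- cells and 8.78 to 8.86 in SSEA1+ cells, below MEFs in the same order as Cxcl12, Ptgs2 and Tlr4. Of the macrophage genes, Cd68 (1.27) and Laptm5 (2.87) rose and Lyz2 (-2.14) fell, and of 8 neutrophil genes 1, Camp, rose (1.04). The part of these markers in the members' changes was not tested.

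Within day 3, SSEA1+ against Thy1+ cells asked how far the fractions had parted. All 10 members had their mean in the order Thy1+, Thy1-, SSEA1+ from high to low, and the share of all genes in that order was not counted. Of the 10, 5 were lower in SSEA1+ cells, where 1.73% of all genes were called and 1.41% were lower: Il6 (-2.14 ± 0.39, adjusted p = 0.00703), Cxcl12 (-2.06 ± 0.18, 9e-05), Lcn2 (-1.95 ± 0.35, 0.00609), Cxcl5 (-1.79 ± 0.40, 0.0221) and Cxcl1 (-1.26 ± 0.28, 0.0218). Cxcl1 had 7.83 and 8.76 in SSEA1+ cells, the second within its MEF values. Saa3 differed by -1.77 with an adjusted p of 0.0695, and Ccl2 by -0.66 (0.0657). The count was 2 without Thy1+ M2, without Thy1+ M3 or without SSEA1+ M2. Without Thy1+ M2, Cxcl1 (-1.02, adjusted p = 0.249), Cxcl5 (-1.45, 0.249) and Lcn2 (-1.66, 0.0912) lost the call, and without SSEA1+ M2 the same 3 genes did (-0.80, -1.41 and -1.54). Il6 lost it without Thy1+ M3 (-1.94, 0.0933) or SSEA1+ M3 (-1.93, 0.0962), Cxcl1 (-1.50) and Cxcl5 (-2.12) also without Thy1+ M3 (adjusted p = 0.0591 for both), and Cxcl12 kept it in each case.

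From day 3 to day 6, Cxcl12 rose and Cxcl5 fell in all 3 fractions. Tlr4 rose in Thy1+ cells, in which Ptgs2 and Saa3 fell. Members called numbered 5 in Thy1+ cells, 2 in Thy1- cells and 2 in SSEA1+ cells, where 9.12%, 3.24% and 1.80% of all genes were called. In Thy1+ cells Cxcl12 went from 10.49 and 10.28 to 12.17 and 11.85 (1.62 ± 0.18, adjusted p = 2.12e-05), values that overlapped those of MEFs. In Thy1- cells it went to 11.29 and 10.92 (1.18 ± 0.18) and in SSEA1+ cells to 10.38 and 10.00 (1.86 ± 0.18, adjusted p = 4.09e-05). The 2 SSEA1+ arrays of day 6 thus stayed below the MEFs. With the mean of both Cxcl12 probe sets the rise in Thy1- cells was 0.78, under 2-fold, and was not called. The fibroblast list averaged 10.76 to 10.77 in Thy1+ cells of day 6, against 9.90 to 10.01 on day 3, with 3 of 11 genes higher and a median of 0.60. In Thy1- cells 2 of its genes rose (median 0.22) and in SSEA1+ cells 1 (median 0.09), and the part of these genes in the members' change was not tested.

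Cxcl5, the gene with the steepest loss, went to 8.62 and 7.44 in Thy1+ cells (-2.03 ± 0.40, adjusted p = 0.0024), 6.90 and 6.15 in Thy1- cells (-3.0 ± 0.40, 8.01-fold, adjusted p = 3.11e-04) and 6.20 and 6.23 in SSEA1+ cells (-2.06 ± 0.40, adjusted p = 0.00922). Its day 6 values in the last 2 fractions lay below both MEF values. Ccl2 had an adjusted p under 0.05 in each fraction but less than a 2-fold difference (-0.95, -0.71 and -0.90). Ptgs2 in Thy1+ cells had 7.26 and 8.52 on day 6 (-1.88 ± 0.47, adjusted p = 0.00977), and Saa3 9.21 and 7.12 (-1.58 ± 0.50, 0.032). The Saa3 call ended without day 3 Thy1+ M2 (-1.21, 0.209), day 3 Thy1+ M3 (-1.95, 0.0529) or day 6 Thy1+ M3 (-0.53, 0.254), and it was -2.62 without the array that stood apart, day 6 Thy1+ M2. Cxcl5 in Thy1+ cells was -2.62 without day 6 M2 and -1.44 without day 6 M3, and passed in both cases. The Ptgs2 call ended without day 3 Thy1+ M2 (-1.80, 0.0682) or day 6 Thy1+ M2 (-1.25, 0.0976), and was -2.51 without day 6 Thy1+ M3. In SSEA1+ cells the Cxcl5 call ended without day 3 M3 (-1.68, 0.143), day 6 M2 (-2.05, 0.0815) or day 6 M3 (-2.07, 0.0786), and in Thy1- cells Cxcl12 was under 2-fold without day 6 M2 (0.99). Without day 6 Thy1+ M2, 4 members were called in SSEA1+ cells, and without day 3 Thy1+ M2, 3 were called in Thy1+ cells. A fit of the 4 Thy1+ arrays of these days alone called none of the 5.

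Tlr4 was the one member called when the day 3 to day 6 step of SSEA1+ cells was set against that of Thy1+ cells, where 1.86% of all genes were called; the Thy1- step was not tested against the others. In Thy1+ cells it went from 5.59 and 5.51 to 8.17 and 6.99, a rise of 2.03 ± 0.28 (adjusted p = 1.65e-04). In SSEA1+ cells it went from 4.71 and 4.41 to 4.69 and 4.40 (-0.01, 95% interval -0.61 to 0.59), and in Thy1- cells from 5.28 and 4.98 to 5.41 and 5.15 (0.15, 95% interval -0.45 to 0.75). The SSEA1+ signals lay below the level under which the dimmest 25% of genes lay (4.87 to 5.17). A signal there may be background, so a fall in SSEA1+ cells could go unseen. Without day 6 Thy1+ M2, the array with degraded controls, the Thy1+ rise was 1.44 (adjusted p = 1.52e-04), and without day 6 Thy1+ M3 it was 2.62. The SSEA1+ step minus the Thy1+ step was -2.05 ± 0.39 (95% interval -2.89 to -1.20, adjusted p = 0.013). Without day 6 Thy1+ M2 it was -1.46 (adjusted p = 0.00447), and without day 6 Thy1+ M3 -2.64. In the latter fit 4 members were called, and 1990 of 11807 genes in place of 220. The adjusted p rose above 0.05 without day 3 Thy1+ M2 (-2.09, 0.0533), day 3 Thy1+ M3 (-2.00, 0.0639), day 3 SSEA1+ M2 (-1.89, 0.0761) or day 6 SSEA1+ M3 (-1.90, 0.07), and in a fit of the compared groups alone (0.182).

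**Figure D3:**
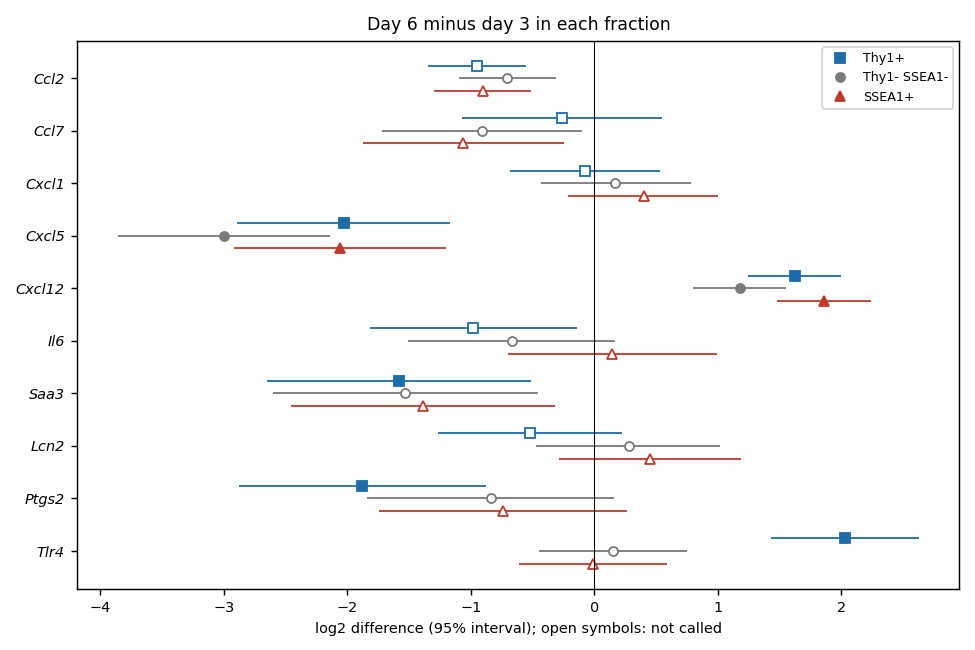
Difference of day 6 from day 3 (horizontal axis, log2) in each fraction for the 10 genes, with 95% intervals from limma; open symbols were not called. Cxcl12 lies right of 0 and Cxcl5 left of 0 in all 3 fractions, and Tlr4 lies right of 0 in Thy1+ cells, at 2.03.

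On day 6, SSEA1+ against Thy1+ cells gave 5 lower members, where 12.1% of all genes were called and 6.25% were lower. Tlr4 differed most (-3.04 ± 0.28, 8.21-fold, adjusted p = 3.75e-06), followed by Cxcl12 (-1.82 ± 0.18) and Cxcl5 (-1.82 ± 0.40, adjusted p = 0.00364). Saa3 (-1.58 ± 0.50, 0.0273) and Ccl7 (-1.35 ± 0.38, 0.0151) also passed. Ccl7 had 10.89 and 9.27 in Thy1+ cells and 8.81 and 8.64 in SSEA1+ cells. Ptgs2 differed by -0.02 (95% interval -1.02 to 0.99). Without day 6 Thy1+ M2, Ccl7 and Saa3 both stood at -0.54 (adjusted p = 0.157 and 0.337), and without Thy1+ M3 they were -2.16 and -2.63. Tlr4 was -2.45 and Cxcl5 -1.23 (adjusted p = 0.0399) without Thy1+ M2, against -3.63 and -2.40 without Thy1+ M3. Ccl7 and Saa3 also lost the call without SSEA1+ M2 (-1.44 and -1.63) or without SSEA1+ M3 (-1.27 and -1.54).

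Thy1+ cells of days 9 and 12, which had kept the fibroblast surface marker, were set against MEFs as the mean of the 2 days. Each day had 1 array, which borrows its spread from the replicated groups. Lcn2 was 13.6-fold above its dim MEF signal, and Ptgs2 and Il6 were lower. Of the 10 members 1 was higher and 4 lower, where 9.16% of all genes were called. Lcn2 had 7.5 on day 9 and 8.38 on day 12 (3.76 ± 0.35, adjusted p = 2.12e-06). Ptgs2 had 7.77 and 7.93 (-3.35 ± 0.47, 10.2-fold, adjusted p = 1.09e-04), and Il6 4.71 and 5.49 (-2.01 ± 0.39, 4.02-fold, adjusted p = 0.00179). Ptgs2 and Il6 were thus below MEFs on the same arrays on which Lcn2 was above them.

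Ccl7 (-1.28 ± 0.38, adjusted p = 0.0256) and Cxcl5 (-1.26 ± 0.40, 0.0363) also passed, but both lost the call without MEF M2 (-1.14, 0.15; -1.43, 0.0824), MEF M3 (-1.41, 0.0729; -1.09, 0.203) or day 9 Thy1+ (-0.97, 0.184; -1.07, 0.164), and Cxcl5 without day 12 Thy1+ (-1.45, 0.0614); 3 members were called when MEF M2 or MEF M3 was left out. Ccl2, at 9.41 and 9.19, differed from MEFs by 0.02 (95% interval -0.38 to 0.41), Cxcl12, at 11.63 and 12.19, by -0.08 (-0.46 to 0.30) and Cxcl1, at 7.92 and 10.05, by 0.21 (-0.40 to 0.81). Saa3 (1.30, 95% interval 0.23 to 2.37, adjusted p = 0.0798) and Tlr4 (0.80, 0.20 to 1.40, 0.0551) were not called. Cxcl1 differed most between the days, by 2.13 from day 9 to day 12 in Thy1+ cells and 1.67 in Thy1- cells, against 0.15 in SSEA1+ cells, with 1 array on each day and no test.

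Genes of the other lists were called in the same late Thy1+ arrays. Of 19 IL-6 receptor and JAK-STAT genes 7 rose and 0 fell (limma; 9 had an unadjusted p under 0.05), against 4.61% and 4.56% of all genes, and the list's median was 0.36 against 0.04. They included Il6ra (2.59 ± 0.19, adjusted p = 2.35e-07) and the cytokine-induced inhibitor gene Cish (2.48 ± 0.14). Of 22 acute phase and prostaglandin genes 4 rose, with Serpina3n at 4.32 ± 0.15 and the complement gene C4b at 3.5 ± 0.16, and 4 fell, with Ptgfr at -3.73, and a median of 0.12. Of 32 Toll-like receptor and NF-kB genes 4 rose, with the lipopolysaccharide-binding protein gene Lbp at 3.65 ± 0.14 and Icam1 at 2.82, and 1 fell, with a median of 0.06. Of 30 other chemokine and cytokine genes 6 rose, with the monocyte chemokine gene Ccl8 at 3.49 ± 0.56, and 1 fell, with a median of 0.15.

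SSEA1+ cells of days 9 and 12 had lower signals of most of these genes. Set against late Thy1+ cells, 9 of 10 members were lower, where 16.3% of all genes were called and 9.12% were lower. Tlr4 was 10.9-fold lower (-3.44, adjusted p = 3.46e-07), at 4.39 and 4.14 against 7.25 and 8.17. Ptgs2 (-2.87), Cxcl12 (-2.84, adjusted p = 2.88e-08), Cxcl1 (-2.52), Il6 (-2.13), Lcn2 (-2.03) and Cxcl5 (-2.02) followed. Ccl2 was the exception by size (-0.83, adjusted p = 0.00262). Saa3 (-1.59, adjusted p = 0.0222) lost the call without day 9 SSEA1+ (-1.36, 0.114) or day 12 Thy1+ (-1.09, 0.227), and Ccl7 (-1.34, 0.0122) without day 12 Thy1+ (-1.03, 0.123) or day 12 SSEA1+ (-0.77, 0.263). Cxcl1 was -1.45 without day 12 Thy1+ and -3.58 without day 9 Thy1+. In the same arrays the partners of Tlr4 were lower as well, Ly96 by -1.42 ± 0.24 and Cd14 by -1.27 ± 0.19, and the fibroblast list averaged 8.66 and 7.98 in SSEA1+ cells against 10.92 and 11.02 in Thy1+ cells.

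Against SSEA1+ cells of day 6, the late SSEA1+ cells had 6 lower members, where 2.39% of all genes (282) were called and 1.29% were lower. The count over all genes was 76 without day 12 SSEA1+ and 457 without day 9 SSEA1+. Ptgs2 went from 8.25 and 7.49 to 5.20 and 4.78 (-2.88 ± 0.47, adjusted p = 0.00199) and Il6 from 5.92 and 5.08 to 2.92 and 3.02 (-2.53 ± 0.39, 0.00142). Cxcl1 went from 9.02 and 8.36 to 6.39 and 6.54 (-2.23 ± 0.28) and Ccl2 from 10.08 and 9.87 to 8.82 and 8.13 (-1.50 ± 0.18, adjusted p = 2.18e-04). No late array overlapped day 6 for these 4 genes, and the share of all genes without such overlap was not counted. Cxcl5 (-2.09 ± 0.40) lost the call without day 6 SSEA1+ M2 (-2.10, adjusted p = 0.0602) or day 12 SSEA1+ (-2.25, 0.052). Cxcl12 (-1.12 ± 0.18) went under 2-fold without day 6 SSEA1+ M2 (-0.93) and lost the call without day 12 SSEA1+ (-0.81, 0.127). On the same arrays 10 of 11 pluripotency genes rose (median 2.44), 7 of 10 epithelial genes rose and 4 of 11 fibroblast genes fell (median -0.84); their part in the members' change was not tested.

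The GFP+ cells of day 12, 1 array, were lower than the other SSEA1+ cells of that day in 3 members, where 7.18% of all genes were called and 4.73% were lower. Ccl2 had 6.77 against 8.13 (-1.36 ± 0.26, adjusted p = 0.00352), Cxcl1 4.97 against 6.54 (-1.57 ± 0.40, 0.0204) and Lcn2 4.23 against 6.06 (-1.83 ± 0.49, 0.0272). Lcn2 in GFP+ cells thus lay within its 2 MEF values. Ccl7 had 5.18 against 6.88 (-1.69, 95% interval -2.84 to -0.55, adjusted p = 0.0629). With 1 array on each side these tests assume that the arrays vary like the replicated groups.

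In iPS cells against MEFs, 8 of 10 members were lower, where 30.8% of all genes were called and 15.3% were lower. Ccl7 was 35.3-fold lower, with 4.87, 4.71 and 5.19 on the iPS arrays (-5.14 ± 0.34, 3 against 2 arrays, adjusted p = 1.01e-08). Cxcl12 was 15.6-fold lower (-3.97 ± 0.16), Cxcl1 12.9-fold, Cxcl5 10.8-fold, Tlr4 9.03-fold, Il6 7.86-fold and Ccl2 7.74-fold. For Ccl2 the iPS arrays had 6.27, 6.44 and 6.28. The iPS signals of Tlr4 were at or above 7.0% to 10.8% of genes, of Cxcl5 9.0% to 16.4% and of Il6 8.2% to 18.4%. Signals this dim may be background, so the folds of these genes may understate the difference. Those of Ccl7 were at or above 21.0% to 27.7% of genes. The acute phase genes were not called. Lcn2 had 3.98, 4.06 and 4.01 (-0.16, 95% interval -0.84 to 0.51) and Saa3 5.99, 5.61 and 5.33 (-0.19, -1.17 to 0.79). The 2 genes with the largest rise on day 3 thus had end points whose intervals include 0. Lcn2 was at or above 12.7% to 16.3% of genes in MEFs and 11.6% to 12.5% in iPS cells. Its signal may be background at both ends, so a difference there could go unseen. Ly96, the Tlr4 partner, was also lower (-3.82 ± 0.22), and 15 of 32 Toll-like receptor and NF-kB genes were lower and 1, Icam1, higher (4.34), with a median of -0.83 against 0.01 for all genes. Of 30 other chemokine and cytokine genes 9 were lower and 1 higher, and of 22 acute phase and prostaglandin genes 9 were lower, with the pentraxin gene Ptx3 at -5.25.

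Ptgs2 took another course at the end. It had 4.29 in GFP+ cells and 8.02, 7.94 and 9.29 in the iPS lines, a difference of 4.13 ± 0.54 (95% interval 2.97 to 5.28, 17.5-fold, adjusted p = 1.32e-04), the only member called between these groups, where 7.23% of all genes were called. It still lay below MEFs (-2.78 ± 0.43, 6.88-fold, adjusted p = 5.46e-05). The GFP+ group was 1 array. The line with the highest Ptgs2, 1-3, also had the highest fibroblast average of the 3 lines (7.53, against 6.93 and 6.61), and without it the difference was 3.69. The GFP+ array had a fibroblast average of 6.98, above the 6.93 and 6.61 of the other lines. The part of remaining feeder cells was not tested. The second Ptgs2 probe set, which is dimmer, had 3.49 in GFP+ cells and 4.03, 3.80 and 5.63 in iPS lines, so the line 1-3 was highest on both probe sets. With the mean of both probe sets the difference was 2.56 (adjusted p = 0.00209).

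Cxcl12, Ptgs2 and Tlr4 each had 2 probe sets, and the brighter one was used. The second Cxcl12 probe set had 9.87 and 9.72 in MEFs, 6.05 and 6.11 in SSEA1+ cells of day 3 and 5.83, 5.27 and 4.78 in iPS cells. These groups had the same order on the first. From day 12 SSEA1+ to GFP+ cells, however, the second rose (5.23 to 6.34) where the first fell (8.76 to 8.23). In Thy1- cells the second overlapped between day 3 (7.55 and 7.74) and day 6 (8.48 and 7.59). The second Tlr4 probe set moved less, from 5.06 and 4.95 to 5.51 and 5.65 between days 3 and 6 of the Thy1+ fraction, where the first had a rise of 2.03. Averaging both Tlr4 probe sets gave 1.31 for that rise and -1.44 for the difference between fractions (adjusted p = 0.00369). The second Ptgs2 probe set had 7.10 and 6.94 in MEFs and 3.24 to 4.06 in every Thy1+ and Thy1- array of days 6 to 12, so it shows little order among those groups. Averaging the Ptgs2 probe sets ended its call between late and day 6 SSEA1+ cells (-1.46, adjusted p = 0.0543). It also gave smaller values between late SSEA1+ and late Thy1+ cells for Ptgs2 (-1.52) and Tlr4 (-2.32), and for Tlr4 between day 6 SSEA1+ and Thy1+ cells (-2.08), over all days (-1.68) and in iPS cells against MEFs (-2.43), all still called.

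**Figure D4:**
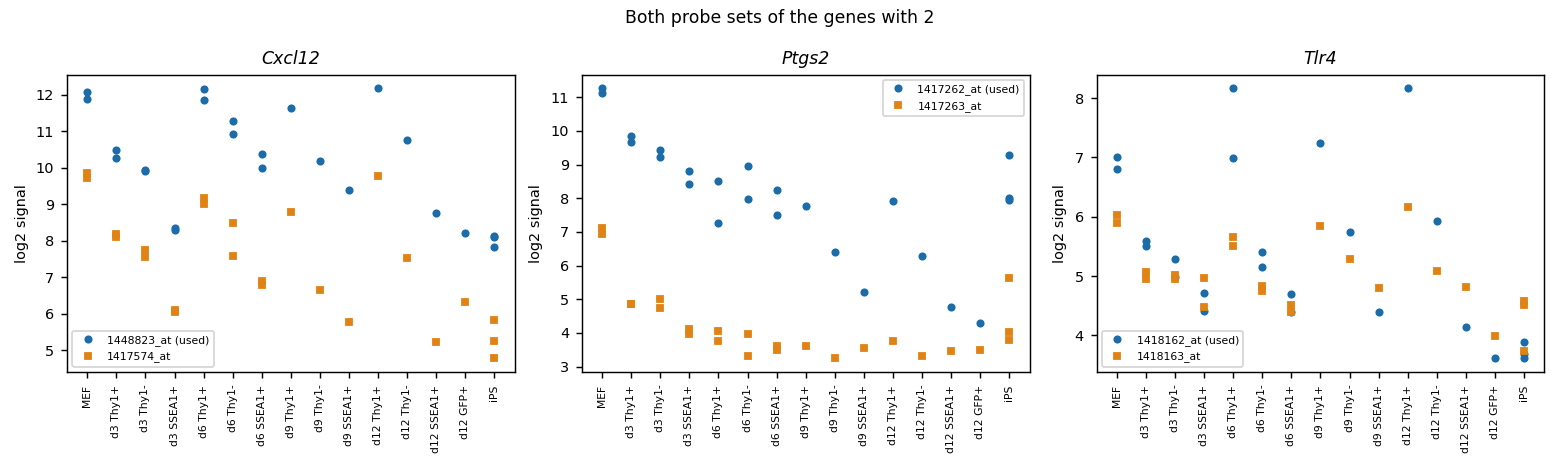
Log2 signals (vertical axis) of both probe sets of Cxcl12, Ptgs2 and Tlr4 on the 24 arrays, by group (horizontal axis); circles are the probe set used, squares the second one, and each point is 1 array. Both Cxcl12 probe sets fall from MEFs to every day 3 fraction. From day 12 SSEA1+ to GFP+ cells the one used falls (8.76 to 8.23) and the second rises (5.23 to 6.34). The second Ptgs2 and Tlr4 probe sets cover a smaller range.

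Over the whole course, SSEA1+ cells against Thy1+ cells asked which members kept apart on every day, in a fit of the 18 sorted arrays with day and fraction. In this fit 9 of 10 members were lower in SSEA1+ cells, where 8.57% of all genes were called and 5.07% were lower. Tlr4 (-2.49 ± 0.34, 5.62-fold, adjusted p = 4.25e-05) and Cxcl12 (-2.24 ± 0.19, 2.98e-06) led, followed by Cxcl5 (-1.87 ± 0.24), Il6 (-1.76 ± 0.25), Lcn2 (-1.65 ± 0.24), Saa3 (-1.65 ± 0.31) and Cxcl1 (-1.52 ± 0.28). Ptgs2 (-1.35 ± 0.37, adjusted p = 0.00807) and Ccl7 (-1.08 ± 0.26, 0.00299) passed with smaller differences. Ccl7 went under 2-fold without day 6 Thy1+ M2 (-0.85), day 12 Thy1+ (-0.90) or day 12 SSEA1+ (-0.92), and Ptgs2 with the mean of its probe sets (-0.90, adjusted p = 0.0024). Ccl2 had a small and precise difference (-0.70 ± 0.11, adjusted p = 9.71e-05).

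Within days, every SSEA1+ array lay below every Thy1+ array on 4 of 4 days for 9 members and on 3 days for Ptgs2. The share of all genes that lay so was not counted, and days 9 and 12 had 1 array per fraction. The gap for Tlr4 was -0.99 on day 3, -3.04 on day 6, -2.86 on day 9 and -4.03 on day 12. For Cxcl5 it was nearly the same on each day (-1.79, -1.81, -1.98 and -2.05), and for Cxcl1 it was -1.27, -0.79, -1.53 and -3.51. On day 12, with 1 array per fraction, the gap was the largest of the 4 days for all 10 genes. This was not tested, and the share of all genes with their largest gap on day 12 was not counted. The fibroblast list moved in the same direction, with 10 of its 11 genes lower in SSEA1+ cells and a median of -1.77, and its part in the members' difference was not tested. Of the other lists, 10 of 32 Toll-like receptor and NF-kB genes, 9 of 22 acute phase and prostaglandin genes, 6 of 30 chemokine and cytokine genes, 5 of 19 IL-6 receptor genes and 3 of 18 interferon genes were lower, and 0 in these lists were higher (limma).

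Thy1- cells, which lacked both markers, lay between the other fractions for 10 members on day 3, 8 on day 6, 7 on day 9 and 8 on day 12. The share of all genes for which they lay between was not counted. Against Thy1+ cells over all days, 2 members were lower, Tlr4 (-1.53 ± 0.34, adjusted p = 0.0145) and Cxcl5 (-1.07 ± 0.24, 0.0159), where 1.91% of all genes were called and 0.754% were lower. Cxcl12 differed by -0.93 (adjusted p = 0.0109). Tlr4 lost the call without day 9 Thy1+ (-1.50, 0.0518). Cxcl5 went under 2-fold without day 6 Thy1+ M2 or day 6 Thy1- M3 (-0.91 each) and lost the call without day 12 Thy1+ (-1.0, 0.0504) or day 12 Thy1- (-0.98, 0.0511).

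**Figure D5:**
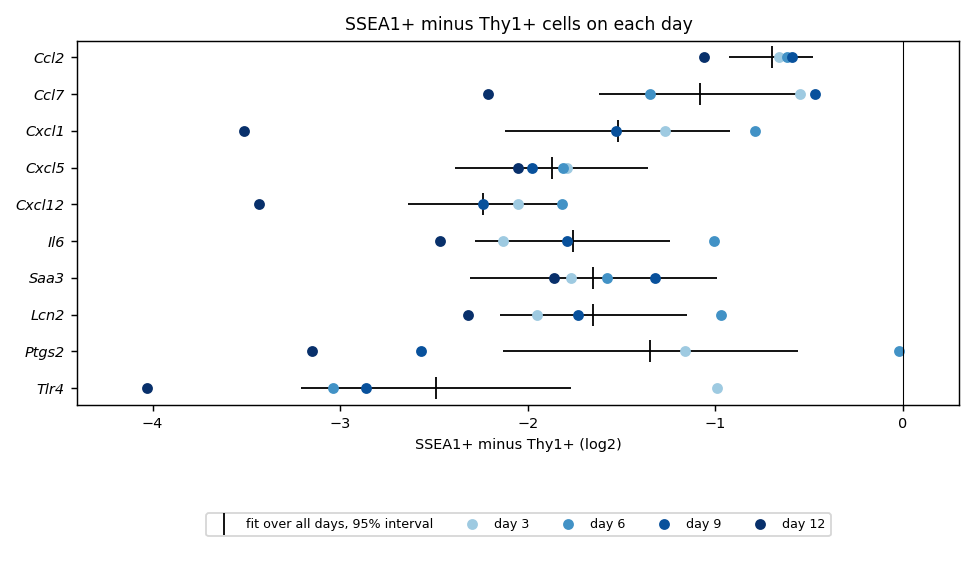
SSEA1+ minus Thy1+ difference (horizontal axis, log2) of each gene on days 3, 6, 9 and 12 (points, group means), with the fit over all days and its 95% interval (line). All points lie left of 0, those of Tlr4 between -0.99 and -4.03 and those of Ccl2 between -0.59 and -1.06.

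The genes whose group means followed each member most closely were found by Pearson correlation over the 15 group means among 2795 genes that spanned at least 2 on the log2 scale, as a description. Cxcl12 was nearest to the matrix proteoglycan gene Bgn (r = 0.979) and to Serpinf1 (0.977), Tlr4 to the lysophosphatidic acid receptor gene Lpar1 (0.976) and Tns2 (0.976), and Ccl7 to the transcription factor gene Ets1 (0.972). Ccl2 was nearest to Adh7 (0.953) and the galectin gene Lgals3 (0.952), Il6 to the phospholipase A2 gene Pla2g4a (0.939), Cxcl1 to Id3 (0.940) and Cxcl5 to Myof (0.946). Lcn2 was nearest to Steap4 and Il6ra (0.935 each), and Saa3 had the least close neighbours, Gda (0.872) and Cxcl16 (0.845). Among the members, Ccl2 and Ccl7 had r = 0.94, Cxcl12 and Tlr4 0.93, Il6 and Cxcl5 0.91 and Il6 and Ptgs2 0.90, while Ptgs2 and Lcn2 had 0.07. All these values come from the same arrays.

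In the EpCAM split of day 6 SSEA1+ cells, no member was called (limma; 0 of 10, with 3 at an unadjusted p under 0.05), where 0.75% of all genes (93) were called. Leaving out any 1 of the 4 arrays left 0 to 6 genes called over the whole table (0 without EpCAM- 1 or EpCAM- 2, 6 without EpCAM+ 1 and 4 without EpCAM+ 2). The split itself was visible in the marker lists: the epithelial list averaged 5.59 to 5.85 in EpCAM- arrays and 7.0 to 7.23 in EpCAM+ arrays. Ccl7 had 7.81 and 8.54 in EpCAM- cells and 7.38 and 7.22 in EpCAM+ cells (-0.88 ± 0.23, 95% interval -1.44 to -0.32, adjusted p = 0.116). Ccl2 had 8.88 and 9.37 against 8.61 and 8.51 (-0.56 ± 0.16, -0.96 to -0.16, adjusted p = 0.145). Ptgs2 differed in the other direction, with 5.02 and 5.77 against 6.30 and 5.85 (0.68 ± 0.26, 0.04 to 1.33, adjusted p = 0.232). For these 3 genes each EpCAM- array lay on one side of both EpCAM+ arrays, and the share of all genes that lay so was not counted. Saa3 had 6.93 to 7.04. Il6 had 3.02 to 3.32 and Lcn2 3.20 to 3.34 on the 4 arrays, Cxcl12 3.92 to 4.19 and Tlr4 3.49 to 3.62. The last 4 lay under the level of the dimmest 25% of genes (4.43 to 4.47), where a difference could go unseen. The widest interval among the other members was that of Cxcl5 (-0.44, 95% interval -1.14 to 0.25), which includes a fall of more than 2-fold.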

How the data were processed

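The authors deposited 2 tables of log2 signals per probe set, of 24 and 4 arrays, made by RMA, per the submitters' processing notes; which arrays were normalized together is not given, so no signal was compared across the tables, only a gene's place among the genes of its own table. Array medians were 6.835 to 6.988 and 6.553 to 6.58. Probe sets with 1 gene symbol were kept (18003 of 22716 and 20393 of 22690), and the one of highest mean signal stood for a gene.

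Group means were compared with limma 3.58.1 in R 4.3.3 over all 24 arrays (15 groups, 9 residual and 4.68 prior degrees of freedom), over the 18 sorted arrays with day and fraction, or over the 4 EpCAM arrays, and p-values were Benjamini-Hochberg adjusted over all genes. The fits were tested on simulated data. Genes named from the other pathway lists were up to 3 called genes of largest change per list and comparison; a few others were chosen after their values were seen. The members and lists were chosen with earlier results of these data known. The main fits did not pair the arrays by replicate number (correlations of same-numbered deviations -0.21 to 0.21 over 21 pairs of groups). Promoter letters were searched in RefSeq sequences with Python 3.11.15. The number of arrays limits the precision.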

Additional observations from a re-analysis of the deposited data

Results flagged for a closer look

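The step of Tlr4 from day 3 to day 6 differed between fractions: the SSEA1+ step minus the Thy1+ step was -2.05 ± 0.39 on the log2 scale (limma, adjusted p = 0.013). Both Thy1+ arrays of day 6 (8.17 and 6.99) lay above both of day 3 (5.59 and 5.51), while the SSEA1+ arrays had 4.71 and 4.41 and then 4.69 and 4.40. These SSEA1+ signals lay inside the dimmest 25% of genes, where a signal may be background. Of the 2 day 6 Thy1+ arrays, the one with degraded RNA controls had the higher value, and without it the difference was -1.46 (adjusted p = 0.00447).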

How the results depend on the processing

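Of 84 called differences of members, 56 stayed called under every alternative run and 28 lost the call under at least 1; of 1145 alternative values 1075 were still called, 70 were not and 0 reversed. With no minimum fold, 8 members passed between day 6 SSEA1+ and Thy1+ cells, as did 3568 of all 11807 genes. Fits of the compared groups alone gave 2 there (480 of all genes), 0 in Thy1+ cells (165) and 4 in SSEA1+ cells (241) from day 3 to day 6, and 0 for the difference between those steps (82). Means of probe sets gave 1 in Thy1- cells from day 3 to day 6 (349), where Cxcl12 lost the call. Leaving out 1 array at a time gave 2 to 6 members between SSEA1+ and Thy1+ cells on day 3, 3 to 5 on day 6, 3 to 6 from day 3 to day 6 in Thy1+ cells, 1 to 4 in SSEA1+ cells, 0 to 4 for the difference between those steps, 3 to 6 for late Thy1+ cells against MEFs, and 1 to 3 for Thy1- against Thy1+ cells over all days. With the replicate block, 16 of 18 comparisons kept their count and 2 did not: 4 members in place of 3 between GFP+ and SSEA1+ cells, and 7 in place of 6 between late and day 6 SSEA1+ cells. Same-numbered arrays did not deviate together (median correlation -0.01, 5 of 21 pairs over 0.1). That cannot show whether the numbers pair the samples, since their meaning is not given. Median scaling moved the median of all genes by 0.13 in iPS cells against MEFs. Not run, for want of replicate arrays, were the fit of the compared groups alone for late SSEA1+ against late Thy1+ cells and for GFP+ against other SSEA1+ cells of day 12, and leaving out the GFP+ array or, against GFP+ cells, the day 12 SSEA1+ array. Days 9 and 12 rest on 1 array per fraction, and Lcn2, Il6, Tlr4 and Cxcl5 lie near the dim end of the scale in several groups.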

Other observations

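The members stood at different places among the genes of the 2 tables for day 6 SSEA1+ cells. Cxcl12 was above 87.8% and 83.8% of genes on the arrays of day 6 SSEA1+ cells in the larger table, but above 17.8% to 21.6% of genes on the 4 EpCAM arrays. Lcn2 was at 42.9% and 39.4% in the first and 5.5% to 7.9% in the second, and Il6 at 37.0% and 25.4% against 3.0% to 7.8%. Ccl2 (84.8% and 82.2% against 67.7% to 79.2%) and Saa3 (43.0% and 41.9% against 48.7% to 49.1%) lay closer. Cxcl12 was read from another probe set in each table. On the EpCAM arrays both of its probe sets lay under the level of the dimmest 25% of genes (4.43 to 4.47). They had 3.92 to 4.19 and 3.80 to 3.93 there. On the day 6 SSEA1+ arrays of the larger table the same probe sets had 6.91 and 6.78, and 10.38 and 10.00. Both lay above that table's level (4.87 to 5.17). Whether the 2 tables were normalized together is not given, and no difference between them was tested.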
